A study of Mus musculus with 10 samples.

Results

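The genes described here are 9 genes of the renin-angiotensin system and of the macula densa in the kidney of aged mice, namely Ren1, Agt, Ace, Agtr1a, Mme, Enpep, Pappa2, Nos1 and Ptgs2. They were picked by symbol when the genotype comparison of these same samples was already known, with Pappa2 among its larger rises. For that reason their genotype differences are given as a description, and where members are counted past a threshold the count describes the fit and is no test of them. Of the 9 genes, 8 had a row in the table of 13299 genes, and all of those 8 passed the filter on low values. Ptgs2, the inducible cyclooxygenase of the macula densa, had no row and was not analysed here. The samples were whole kidneys of mice aged 1.5 years, 5 heterozygous for the Rragc S74N knock-in allele and 5 Rragc +/+ controls. Rragc encodes RagC, a small GTPase through which amino acid supply activates mTORC1. The S74N change, carried in every tissue of these mice, holds RagC in an active form. The labels gave neither sex nor strain, and nothing in them said that the samples of a group came from separate litters or days, so p-values measure the spread between these samples, part of which may be technical. Expression was read as normalized counts, the reads of a gene divided by a size factor of its library, from 3′ mRNA sequencing, in which each transcript is sampled near its end whatever its length.

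Renin, an aspartyl protease released by juxtaglomerular cells of the afferent arteriole, cuts angiotensinogen to angiotensin I, and angiotensin-converting enzyme then makes angiotensin II. Angiotensin II constricts vessels and raises sodium reabsorption through its receptor, and membrane peptidases of the tubule break the peptides down. The macula densa is a plaque of cells at the end of the thick ascending limb that senses luminal salt through the cotransporter encoded by Slc12a1. It signals to the arteriole and to the renin cells with prostaglandins and nitric oxide. Renin cells and macula densa cells are a very small share of the kidney, and in whole tissue fewer cells of a type and less RNA per cell cannot be told apart.

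The promoters of 3 members are shown because Ren1 and Agt encode the enzyme and the substrate that open the cascade, and Pappa2 had the largest genotype difference. Each line holds the 250 bases before the RefSeq transcript start, written 5′ to 3′ on the strand of the gene, with the TATAAA motif in capitals. The positions are those of build GRCm38.p6, whereas the study aligned its reads to GRCm39.
Ren1, chr1:133350424-133350673, plus strand: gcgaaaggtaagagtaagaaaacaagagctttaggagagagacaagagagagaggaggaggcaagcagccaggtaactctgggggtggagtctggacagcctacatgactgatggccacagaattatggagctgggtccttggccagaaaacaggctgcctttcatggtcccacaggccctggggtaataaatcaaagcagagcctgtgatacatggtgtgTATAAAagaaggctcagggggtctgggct
Agt, chr8:124569707-124569956, minus strand: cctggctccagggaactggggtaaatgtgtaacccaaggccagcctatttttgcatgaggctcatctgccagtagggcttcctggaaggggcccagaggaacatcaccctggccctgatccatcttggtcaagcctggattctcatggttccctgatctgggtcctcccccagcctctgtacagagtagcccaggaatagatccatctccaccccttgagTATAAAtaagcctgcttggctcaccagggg
Pappa2, chr1:158958176-158958425, minus strand: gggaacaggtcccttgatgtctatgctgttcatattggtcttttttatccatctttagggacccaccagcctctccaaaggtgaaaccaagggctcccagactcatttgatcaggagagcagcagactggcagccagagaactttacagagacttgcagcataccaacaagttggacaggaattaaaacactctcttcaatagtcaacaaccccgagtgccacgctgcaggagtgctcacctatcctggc

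RefSeq promoters were matched by symbol for 8 of the 9 members, with 11 entries, and Agtr1a had none. In Ren1 the TATAAA motif begins 29 bases before the start, and in Agt 30 bases before it. Searched on both strands, TATAAA was found in 4 of the 11 entries (those of Ace, Agt, Enpep and Ren1) and in 12.4% of all 32851 promoters of this length. The Pappa2 window did not hold these letters. CACGTG, the core of the sites that TFEB and related factors bind, reads the same on both strands and was found in 0 of the 11 entries and in 6.02% of all promoters. These matches describe the letters of the windows, and no measurement here was made at a promoter.

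Among the 8 measured members, Pappa2 was higher and Mme moderately higher in every Rragc S74N/+ kidney than in any Rragc +/+ kidney, while Ren1, Agt, Ace, Agtr1a, Enpep and Nos1 overlapped between the genotypes. Counted in the fit across all genes (limma, threshold of 0.05 on the adjusted p), 1 of the 8 members, Pappa2, lay past the threshold, where 6.03% of 13236 tested genes were, 3.45% higher and 2.58% lower. For 2 of the 8 members no sample of one genotype entered the range of the other, both higher, against 8.16% of all tested genes (4.15% higher and 4.01% lower). Since the members were chosen with this contrast known, and Pappa2 entered the fit only through its high group, nothing is read from these counts and shares. Of the 8 fold changes 4 were above 0 and 4 below, 3 were smaller than 0.2 on the log2 scale, and their median was 0.01, beside -0.01 over all tested genes. Scaling the libraries to equal totals moved the median of all genes by 0.08 and the share of called genes that were higher from 57.3% to 76.1%.

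**Figure D1:**
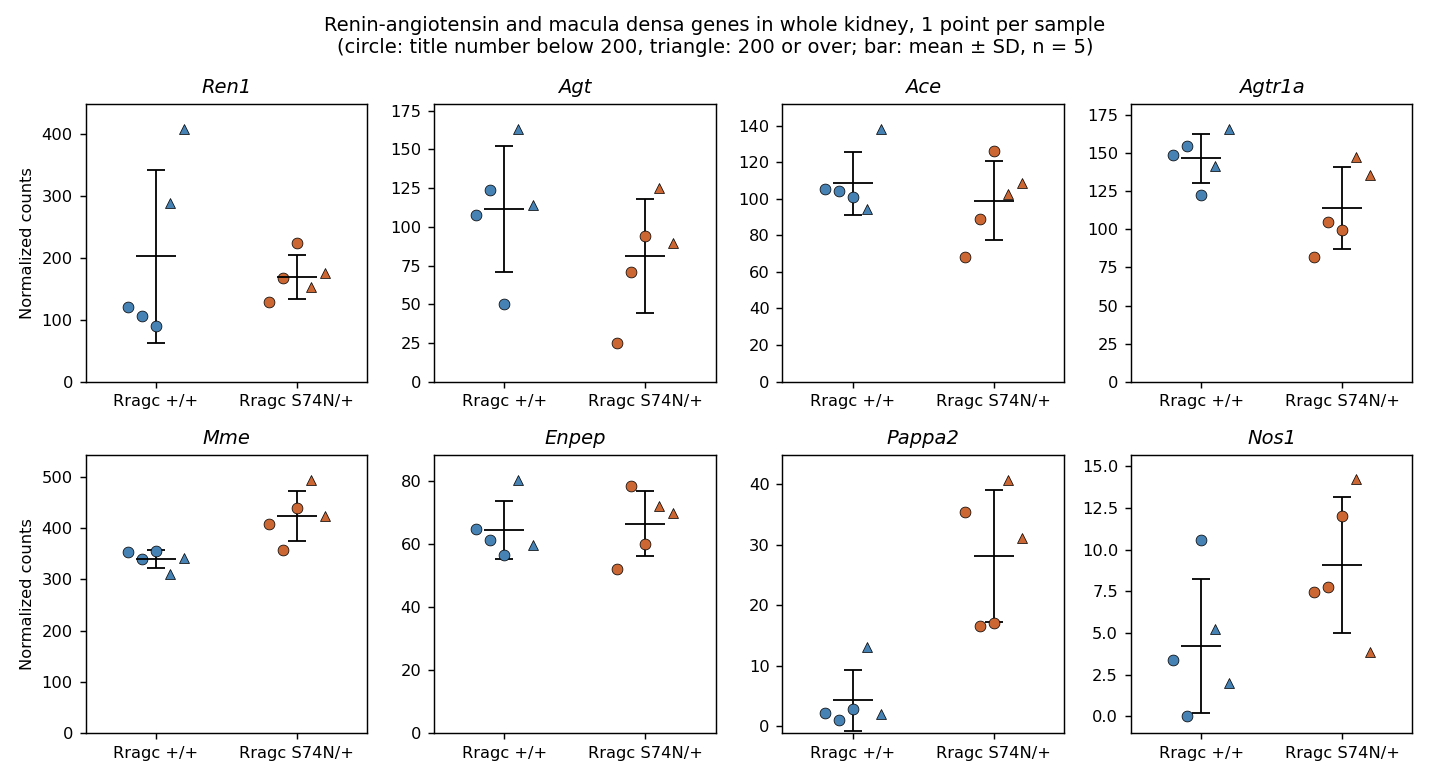
Normalized counts (y axis, linear) of the 8 measured members in 5 Rragc +/+ (blue) and 5 Rragc S74N/+ (orange) kidneys, 1 point per sample, with the mean and SD as bars. Circles and triangles mark samples whose title number is below 200 or is 200 and over. Pappa2 and Mme separate the genotypes, whereas the Ren1 values of Rragc +/+ kidneys lie on both sides of the Rragc S74N/+ values.

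Ren1, the gene of renin, had nearly the same mean log2 level in both genotypes but spread very differently within them. In Rragc +/+ kidneys it had 119.7, 105 and 90.2 normalized counts in replicates 1 to 3 and 288 and 408 in replicates 4 and 5. In Rragc S74N/+ kidneys it had 128, 167, 224, 153 and 175 normalized counts in replicates 1 to 5. All 5 Rragc S74N/+ values fell in the gap between the low and the high Rragc +/+ samples. The means were 202 ± 140 and 169 ± 35.4 normalized counts (SD, n = 5 each), and the log2 fold change was -0.01 ± 0.34 (SE). Among the 4 libraries of each genotype whose whole reads were recovered, Ren1 varied by 61.3% (coefficient of variation) in Rragc +/+ kidneys, where counting error alone would give 8.0%. In Rragc S74N/+ kidneys the variation was 13.3% against 7.92% from counting. Both sets of 4 leave out the highest sample of their group, replicate 5 of Rragc +/+ (408) and replicate 3 of Rragc S74N/+ (224). Counting error is given only as the floor of the measurement, since separate kidneys also differ in other ways, and the 61.3% rests largely on replicate 4.

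The direction of the Ren1 difference changed with the number in the sample titles, which is only a number, since the labels name no batch. Among samples with title numbers below 200 (3 against 3), Ren1 averaged 105 normalized counts in Rragc +/+ and 173 in Rragc S74N/+ kidneys, and every Rragc S74N/+ sample was above every Rragc +/+ sample. Among those numbered 200 and over (2 against 2), it averaged 348 and 164, and both Rragc S74N/+ samples were below both Rragc +/+ samples. The 2 log2 differences of the means of log2 levels were 0.69 and -1.06. With replicates 4 and 5 of Rragc +/+ left out, the fitted log2 fold change was 0.67, against -0.01 with all samples. Of the 13236 tested genes, 268 (2.02%) separated the genotypes in opposite directions in the 2 ranges, and Ren1 was the one member among them. With 3 against 3 and 2 against 2 samples, some genes separate in this way by chance. How many was not measured, so the share does not show that the pattern is rare. The difference between the ranges was not tested, and it rests on 2 Rragc +/+ samples. Ren2, a close copy of renin that some mouse strains carry, had no row in the table.

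Agt, which encodes angiotensinogen, made in the proximal tubule as well as in liver and fat, ranged widely across the kidneys and overlapped between genotypes. It had 107, 124, 49.9, 163 and 114 normalized counts in Rragc +/+ replicates 1 to 5. It had 25.2, 70.8, 94.0, 125 and 89.4 in Rragc S74N/+ replicates 1 to 5. The lowest kidney of each group, replicate 3 of Rragc +/+ and replicate 1 of Rragc S74N/+, stood well below its companions. The means were 112 ± 40.8 and 80.9 ± 36.8 (SD, n = 5 each), with a log2 fold change of -0.54 ± 0.36 (SE). Without replicate 1 of Rragc S74N/+ this log2 fold change was -0.17. Without replicates 4 and 5 of Rragc +/+ it was -0.28. Agt varied by 42.4% in Rragc +/+ and 53.7% in Rragc S74N/+ kidneys, where counting error would give 9.43% and 11.3%.

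Ace, the membrane enzyme that converts angiotensin I to angiotensin II, differed little between the genotypes. Its values ran from 94.3 to 138 normalized counts with a median of 104 in Rragc +/+ kidneys. They ran from 68.1 to 126 with a median of 102.9 in Rragc S74N/+ kidneys. The medians were thus almost equal, and the log2 fold change was -0.15 ± 0.18 (SE). In the 4 Rragc +/+ libraries with recovered reads Ace varied by 4.82%, less than the 9.96% that counting error gives, while replicate 5, whose reads were not recovered, was the highest at 138.

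Agtr1a, the main receptor for angiotensin II in the mouse kidney, was lower in most Rragc S74N/+ kidneys. It had 149, 155, 123, 141 and 166 normalized counts in Rragc +/+ replicates 1 to 5. In Rragc S74N/+ replicates 1 to 5 it had 82.1, 105, 99.98, 148 and 136. Replicates 1 to 3 of Rragc S74N/+ were below the lowest Rragc +/+ value, and replicates 4 and 5 lay within the Rragc +/+ range. The means were 147 ± 16.2 and 114 ± 27.0 (SD, n = 5 each), with a log2 fold change of -0.39 ± 0.17 (SE). Among title numbers below 200 the means were 142 and 95.6 and the groups did not overlap, whereas among title numbers of 200 and over they were 154 and 142 and overlapped.

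Mme, which encodes neprilysin, a brush border peptidase that cleaves angiotensin I and natriuretic peptides, was the member with the highest level and was moderately higher in the mutant kidneys. Its values were 354, 340.2, 355, 311 and 341 normalized counts in Rragc +/+ replicates 1 to 5. They were 408, 359, 439, 494 and 424 in Rragc S74N/+ replicates 1 to 5. The lowest Rragc S74N/+ sample stood just above the highest Rragc +/+ sample. The ratio of the means, 425 ± 49.1 over 340.2 ± 17.8 (SD, n = 5 each), was 1.25, and the log2 fold change was 0.31 ± 0.11 (SE). The log2 differences of Mme were 0.20 at title numbers below 200 and 0.49 at 200 and over. That the groups separated in each range follows from their separation over all samples. With libraries scaled to equal totals its log2 fold change was 0.39.

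Enpep, which encodes aminopeptidase A, the enzyme that turns angiotensin II into angiotensin III, covered almost the same range in both groups. It ranged from 56.6 to 80.3 normalized counts (median 61.4) in Rragc +/+ kidneys. It ranged from 52.2 to 78.5 (median 70.0) in the mutant kidneys. The log2 fold change was 0.04 ± 0.17 (SE), and the variation of 15.6% and 16.5% was close to the counting error of 12.3% and 12.0%. Mme and Enpep, both peptidases that degrade angiotensins at the tubule surface, thus differed in whether the groups separated. The difference between them was not tested.

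Pappa2, a secreted metalloprotease that frees insulin-like growth factors by cutting their binding proteins and is known in the kidney as a gene of the macula densa and thick ascending limb, was near the detection limit in most Rragc +/+ kidneys. It had 2.24, 1.04, 2.88, 13.1 and 1.99 normalized counts in Rragc +/+ replicates 1 to 5. In Rragc S74N/+ replicates 1 to 5 it had 35.4, 16.5, 17.0, 40.7 and 31.1. The lowest Rragc S74N/+ kidney was above the highest Rragc +/+ kidney, replicate 4, which itself stood apart from the other 4. The means were 4.25 ± 4.99 and 28.1 ± 10.96 (SD, n = 5 each), a ratio of 6.62, and the log2 fold change was 2.76 ± 0.50 (SE) on the log2 scale with 1 added to each value, which understates changes of low genes. The gene passed the filter on low values only through the Rragc S74N/+ group, since 5 of 5 of those kidneys but 1 of 5 Rragc +/+ kidneys reached 5 normalized counts.

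The reads behind these Pappa2 values were few. Rragc +/+ replicates 1 to 4 had 2, 1, 3 and 15 reads. Rragc S74N/+ replicates 1, 2, 4 and 5 had 38, 17, 40 and 32 reads. The exact 95% Poisson interval, which covers counting error only, was 8.40 to 24.7 reads for replicate 4 of Rragc +/+ and 9.90 to 27.2 for replicate 2 of Rragc S74N/+. Those 2 intervals overlapped, whereas an interval of 0.242 to 7.22 reads for replicate 1 of Rragc +/+ and one of 28.6 to 54.5 for replicate 4 of Rragc S74N/+ lay far apart. The intervals are in reads and are not adjusted for library depth. That depth was 5797251 reads in replicate 4 of Rragc +/+ and 4615901 in replicate 2 of Rragc S74N/+. Since the genotypes did not overlap over all kidneys, they could not overlap in either range of title numbers, and this adds nothing. The means of Rragc +/+ and Rragc S74N/+ kidneys were 2.05 and 23.0 below 200 and 7.54 and 35.9 at 200 and over.

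Pappa2 was also set against Slc12a1, the salt cotransporter of the thick ascending limb and macula densa, which had 3130 ± 503 normalized counts in Rragc +/+ and 3318 ± 1084 in Rragc S74N/+ kidneys (SD, n = 5 each). Per 1000 normalized counts of Slc12a1 there were 1.24 ± 1.24 of Pappa2 in Rragc +/+ and 9.31 ± 4.57 in Rragc S74N/+ kidneys (SD, n = 5 each). On this scale the groups touched, because replicate 3 of Rragc S74N/+ had 3.36 and replicate 4 of Rragc +/+ had 3.41. The other 4 Rragc S74N/+ kidneys, from 6.32 to 15.1, stayed above all Rragc +/+ kidneys.

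Nos1, the neuronal nitric oxide synthase of macula densa cells, was as scarce as Pappa2 in Rragc +/+ kidneys. It had 3.36, 0, 10.6, 5.24 and 1.99 normalized counts in Rragc +/+ replicates 1 to 5. It had 7.46, 7.75, 12.0, 14.3 and 3.89 in Rragc S74N/+ replicates 1 to 5. The ranges overlapped, with 2 Rragc S74N/+ kidneys above the highest Rragc +/+ value, which was that of replicate 3. The means were 4.23 ± 4.02 and 9.07 ± 4.08 (SD, n = 5 each), and the log2 fold change was 1.25 ± 0.62 (SE). The 8 libraries with recovered reads held between 0 and 14 Nos1 reads, and for the library with 0 the exact 95% Poisson interval reached 3.69 reads. Counting error alone would give a variation of 44.9% in Rragc +/+ and 34.3% in Rragc S74N/+ kidneys, so at this depth the gene was measured only coarsely. Without that library, replicate 2 of Rragc +/+, the log2 fold change was 0.76. Per 1000 counts of Slc12a1, Nos1 had 1.37 ± 1.40 and 2.76 ± 0.987 (SD, n = 5 each).

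**Figure D2:**
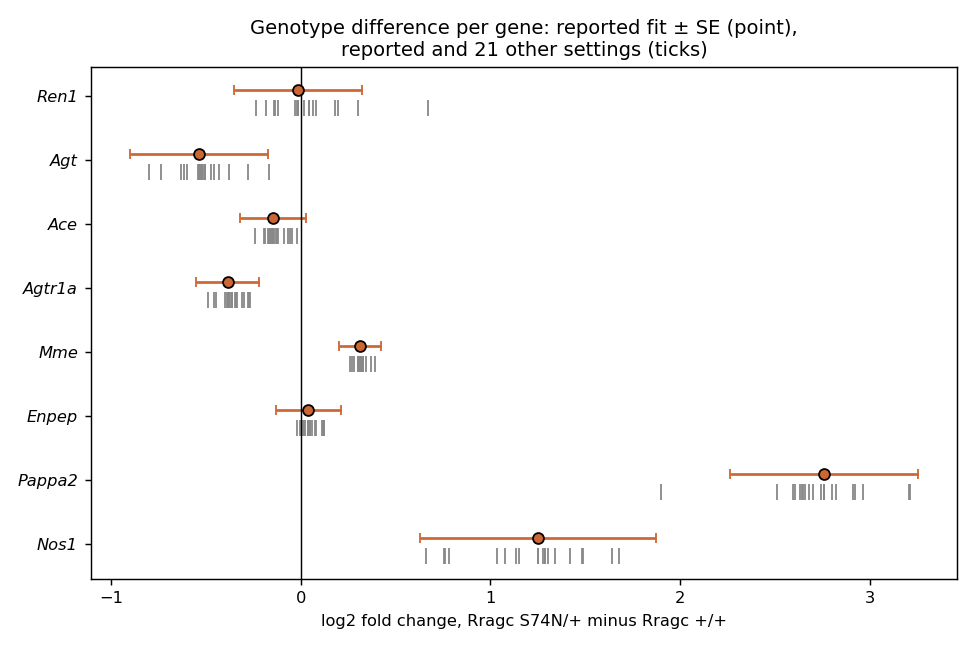
Log2 fold change of each member (x axis, Rragc S74N/+ minus Rragc +/+) in the reported fit (point, with its SE as a bar) and in the reported and 21 other settings (grey ticks). Pappa2 stays between 1.90 and 3.21, Mme and Nos1 stay above 0, Agt, Ace and Agtr1a stay below 0, and Ren1 and Enpep lie on both sides of 0.

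The other genes of these pathways were tested in the same fit across all genes, from lists of 94 genes that hold none of the members. Of these, 78 were tested and 5 (6.41%) were past the threshold, 2 higher and 3 lower, beside 6.03% of all genes. They were Rbpj and Nostrin, which rose, and Klk1, Tbxas1 and Ptger3, which fell. The median log2 fold change over the 78 genes was -0.03. At an unadjusted p under 0.05 (limma) there were 22 of the 78, and 25.4% of all tested genes. No list as a whole was tested.

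Of the other genes of the renin-angiotensin system, 12 of 20 were tested and 1 was past the threshold by limma and by edgeR. DESeq2 called 2, Klk1 and Rnpep, both lower. Klk1, tissue kallikrein, a protease of the distal tubule that releases kinins, fell from 1993 ± 520 to 1229 ± 214 normalized counts (SD, n = 5 each), a log2 difference of -0.67 ± 0.17 (SE), at a limma adjusted p of 0.033. It belongs to a large family of near-identical kallikrein genes, among which reads may be split. Its groups overlapped, with replicate 5 of Rragc +/+ at 1258 below 3 of the Rragc S74N/+ kidneys. This call depended on which libraries were in the fit. It was lost without any of replicates 1, 2 and 4 of Rragc +/+ or replicates 4 and 5 of Rragc S74N/+. The adjusted p was then 0.055 to 0.0997 (limma). Without replicate 5 of Rragc +/+ it was 0.0084 (limma). On the 8 libraries with recovered reads it was 0.010 (limma). Atp6ap2, the prorenin receptor, had 284 ± 38.6 and 224 ± 49.3 (SD, n = 5 each; limma adjusted p = 0.17). The list median was -0.24 on the log2 scale, with 10 of 12 fold changes below 0, beside -0.01 for all genes.

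Among regulators of renin release and renin transcription, 18 of 22 were tested and 1 was past the threshold by limma. Rbpj, the nuclear effector of Notch signaling that binds the renin gene, had 183, 138, 174, 196 and 181 normalized counts in Rragc +/+ replicates 1 to 5. It had 296, 263, 236, 213 and 262 in Rragc S74N/+ replicates 1 to 5. Every mutant kidney was above every control kidney, and the log2 difference was 0.54 ± 0.13 (SE; limma adjusted p = 0.027). The call was lost without replicate 1 or 2 of Rragc +/+ or replicate 2 or 5 of Rragc S74N/+, with adjusted p from 0.053 to 0.081 (limma). Adrb1, the receptor through which sympathetic nerves release renin, had 28.6 ± 7.34 and 27.1 ± 6.54 normalized counts (SD, n = 5 each; limma adjusted p = 0.88). Gnas, the stimulatory G protein behind it, had 3146 ± 184 and 3360.1 ± 290 (SD, n = 5 each; limma adjusted p = 0.60). On the reads of 8 libraries, edgeR and DESeq2 each called 2 genes of this list, Rbpj and also Prkaca, which was lower. Prkaca had 175 ± 54.2 and 105 ± 30.8 normalized counts (SD, n = 5 each; limma adjusted p = 0.085). The list median was 0.07.

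Of the macula densa and salt sensing genes, 7 of 8 were tested and 0 were past the threshold by limma, edgeR or DESeq2, with 1 at an unadjusted p under 0.05 by each of them. Slc12a1 did not differ beyond its spread, its log2 difference being 0.04 ± 0.18 (SE; limma adjusted p = 0.91). Kcnj1, the apical potassium channel that lets that cotransporter run, had 155 ± 21.9 and 109 ± 35.2 normalized counts (SD, n = 5 each; limma adjusted p = 0.095). Without replicate 4 of Rragc S74N/+, where Kcnj1 had 164 normalized counts, its adjusted p was 0.035 (limma). That was the only 1 of 21 alternatives past the threshold, and the largest adjusted p among them was 0.23 (limma).

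Of the prostaglandin genes, 13 of 15 were tested and 2 were past the threshold, both lower. Ptger3, a receptor for prostaglandin E, had 86.1, 95.7, 86.4, 71.6 and 40.8 normalized counts in Rragc +/+ replicates 1 to 5. It had 21.4, 13.6, 31.0, 17.3 and 8.74 in Rragc S74N/+ replicates 1 to 5. All mutant kidneys were below all controls, and the log2 difference was -2.05 ± 0.31 (SE; limma adjusted p = 0.0015). Tbxas1, thromboxane synthase, fell from 52.3 ± 17.7 to 16.9 ± 7.68 normalized counts (SD, n = 5 each), a log2 difference of -1.70 ± 0.38 (SE; limma adjusted p = 0.018). Here too the groups did not overlap, but without replicate 1 of Rragc +/+ the adjusted p was 0.058 (limma). Ptgs1, the constitutive cyclooxygenase, had 73.0 ± 10.4 and 81.3 ± 12.0 (SD, n = 5 each; limma adjusted p = 0.60). Pla2g4a, the phospholipase that supplies arachidonic acid, had 21.6 ± 7.58 and 39.6 ± 16.6 (SD, n = 5 each; limma adjusted p = 0.12). With a term for the range of title numbers, added after seeing the data, its adjusted p was 0.043 (limma). That was the only 1 of 21 alternatives past the threshold, with adjusted p up to 0.41 over the limma, edgeR and DESeq2 alternatives.

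Of the genes of nitric oxide synthesis and soluble guanylate cyclase, 9 of 10 were tested and 1 was past the threshold by limma and by edgeR. DESeq2 called 2, Nostrin and Gucy1b1, both higher. Nostrin, an adaptor that binds the endothelial nitric oxide synthase, had 24.6, 13.5, 4.80, 14.8 and 21.9 normalized counts in Rragc +/+ replicates 1 to 5. It had 71.8, 47.5, 38.0, 57.0 and 41.8 in Rragc S74N/+ replicates 1 to 5, all above the controls. Its log2 difference was 1.75 ± 0.35 (SE; limma adjusted p = 0.0096). Nos3, the endothelial synthase itself, had 8.15 ± 5.43 and 7.92 ± 6.43 normalized counts (SD, n = 5 each; limma adjusted p = 0.97). Nosip, a binding partner of the synthases, had 94.1 ± 25.6 and 83.7 ± 15.2 (SD, n = 5 each; limma adjusted p = 0.68).

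Of the pappalysins, stanniocalcins and insulin-like growth factor genes, the axis in which Pappa2 acts, 14 of 15 were tested and 0 were past the threshold by limma, with 4 at an unadjusted p under 0.05. Pappa, the paralog of Pappa2, had 23.8 ± 13.5 and 31.3 ± 17.3 normalized counts (SD, n = 5 each; limma adjusted p = 0.54). Stc1, which encodes a stanniocalcin, an inhibitor of these proteases, had 33.2 ± 14.7 and 37.4 ± 8.46 (SD, n = 5 each; limma adjusted p = 0.63). Of the brush border peptidases, which share their membrane with Mme and Enpep, 10 of 10 were tested and 0 were past the threshold by limma, with 2 at an unadjusted p under 0.05. Anpep, aminopeptidase N, had a log2 difference of -0.31 ± 0.23 (SE; limma adjusted p = 0.41). Dpp4, dipeptidyl peptidase, had one of 0.09 ± 0.19 (SE; limma adjusted p = 0.81). In these 2 lists edgeR on the reads of 8 libraries called 0 genes, and DESeq2 called 1 in each, Igfbp7 and Xpnpep2, both lower.

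**Figure D3:**
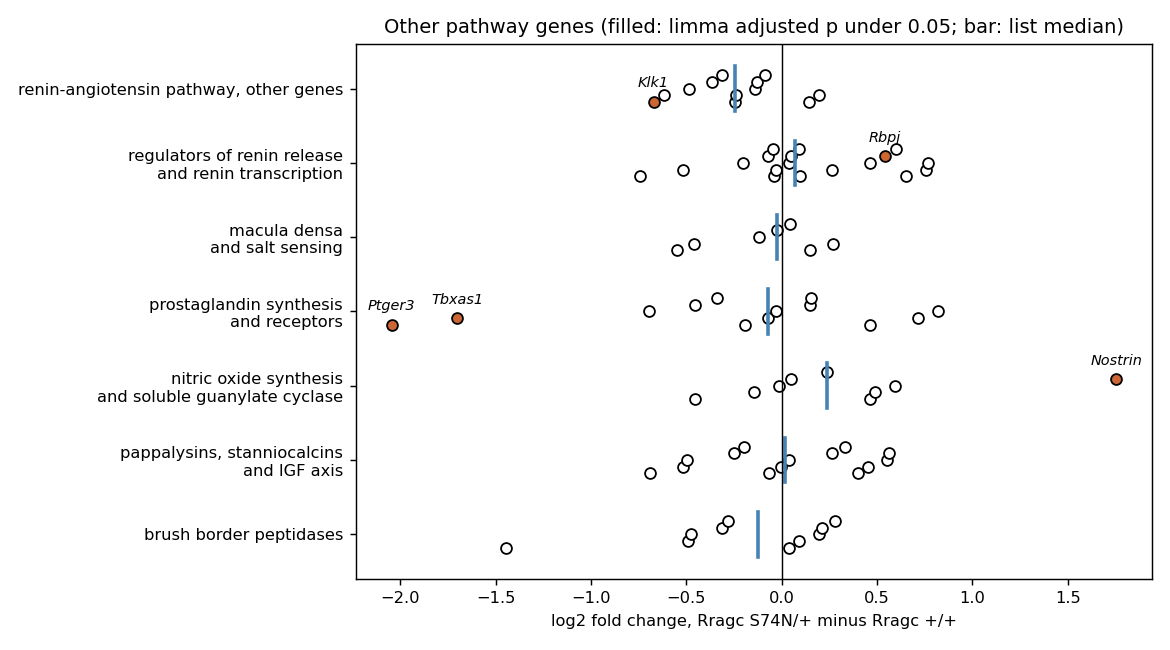
Log2 fold change (x axis, Rragc S74N/+ minus Rragc +/+) of the tested genes of 7 pathway lists (rows), 1 point per gene and list, filled where the limma adjusted p was under 0.05. The blue bar is the median of a list. The 5 filled points are Klk1, Rbpj, Ptger3, Tbxas1 and Nostrin, and the medians lie between -0.24 and 0.24.

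Depth was 4488493 to 5797251 reads in the 8 libraries with recovered reads, and the 10 columns of normalized counts summed to between 4473981 and 5087152. Marker lists placed the samples as kidney. Within each list a marker was counted as higher or lower where limma called it, which does not measure the share of a cell type. The 5 markers of the thick ascending limb summed to 10639 to 14699 normalized counts in Rragc +/+ and 4987 to 10738 in Rragc S74N/+ kidneys. Of the 5, 2 were lower, Umod and Egf. Kcnj1, Cldn16 and Slc12a1, with log2 differences of -0.55, 0.44 and 0.04, were not called. All 4 markers of the distal convoluted tubule, the segment next to the macula densa, were lower, with sums of 4477 to 5597 against 1365 to 2130. Of 8 measured markers of mural cells, the lineage of the renin cells, 1 (Rgs5) was higher, with sums of 824 to 1094 against 1058 to 2010. The list was not uniform, with log2 differences of -0.37 for Acta2 and -0.13 for Pdgfrb. Those of the other measured markers were above 0, and limma called none of them but Rgs5. The sum of 2010 was that of replicate 1 of Rragc S74N/+ alone, and the other mutant kidneys had 1058 to 1110. That library also set the upper ends of the fibroblast and endothelial sums given below. Akr1b7, the marker of that list shared with renin cells, had no row. Proximal tubule markers were lower for 1 of 10 (Slc5a2), with sums of 110294 to 152157 against 115588 to 150364. Immune markers were higher for 3 of 9 (262 to 507 against 469 to 804), fibroblast markers for 2 of 4 (451 to 875 against 835 to 1598) and podocyte markers for 1 of 5 (697 to 816 against 831 to 1048). Of 6 collecting duct markers 1 was higher (Slc26a4) and 1 lower (Slc4a1) by limma, while edgeR and DESeq2 called only Slc4a1. Of 5 endothelial markers (969 to 1154 against 938 to 1304) 0 were called by limma, edgeR or DESeq2, with 2 at an unadjusted p under 0.05 by limma. The 3 measured liver markers (133 to 459 against 361 to 562) also gave 0 calls by the same 3 tools, with 1 at an unadjusted p under 0.05. None of 6 adrenal cortex markers had a row. The part of these cell populations in the levels of Pappa2, Nos1, Mme and the other members was not tested.

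The Y-linked genes Ddx3y, Kdm5d, Eif2s3y and Uty were present in all 10 samples, from 170 to 256, 60.3 to 90.2, 26.9 to 66.2 and 94.3 to 136 normalized counts, and Xist had no row. The reads of 3′ sequencing lie away from the S74N change, so the level of Rragc does not check the genotype of a sample.

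Agt was lower in the libraries with more adipose signal, a relation that was looked for after the values had been seen, so that its p-values describe it and are no independent evidence. The 4 adipose markers Adipoq, Plin1, Lep and Cfd summed to 247, 20.8, 600.0, 2.62 and 85.6 normalized counts in Rragc +/+ replicates 1 to 5. They summed to 3077, 176, 8.0, 1.02 and 116 in Rragc S74N/+ replicates 1 to 5. The 2 kidneys with the most adipose signal were the 2 with the least Agt. On log2 scales the relation had a Pearson r of -0.83 (permutation p = 0.0012, two-sided, adjusted p = 0.019 over 16 relations, n = 10 samples) and a Spearman rho of -0.85 (permutation p = 0.0029, adjusted p = 0.046). Without the 2 samples farthest from the median of adipose signal, replicates 1 and 4 of Rragc S74N/+, r was -0.76, and among the 6 samples with title numbers below 200 it was -0.83. The former set kept replicate 3 of Rragc +/+, and the latter kept both kidneys with the most adipose signal. Neither shows the relation without both of them. The 4 samples numbered 200 and over were too few for a value. Collecting duct markers, which summed to 908 to 2806 in Rragc +/+ and 825 to 2181 in Rragc S74N/+ kidneys, gave r = -0.72 with Agt (permutation, adjusted p = 0.23) and rho = -0.53 (adjusted p = 0.39). The adjustment covers these 16 relations and not the choice of marker lists. None of the other 14 relations, those of the other 7 measured members with both marker sums, passed the adjustment either. In the smaller sets, however, other members came as close. With adipose markers at title numbers below 200, Ace had an r of -0.84, against -0.45 over all 10 samples. With collecting duct markers, without the 2 samples farthest from their median, Agtr1a had -0.80 and Agt -0.74. Without the 2 libraries highest in adipose markers the log2 fold change of Agt was -0.43, against -0.54 with all samples.

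**Figure D4:**
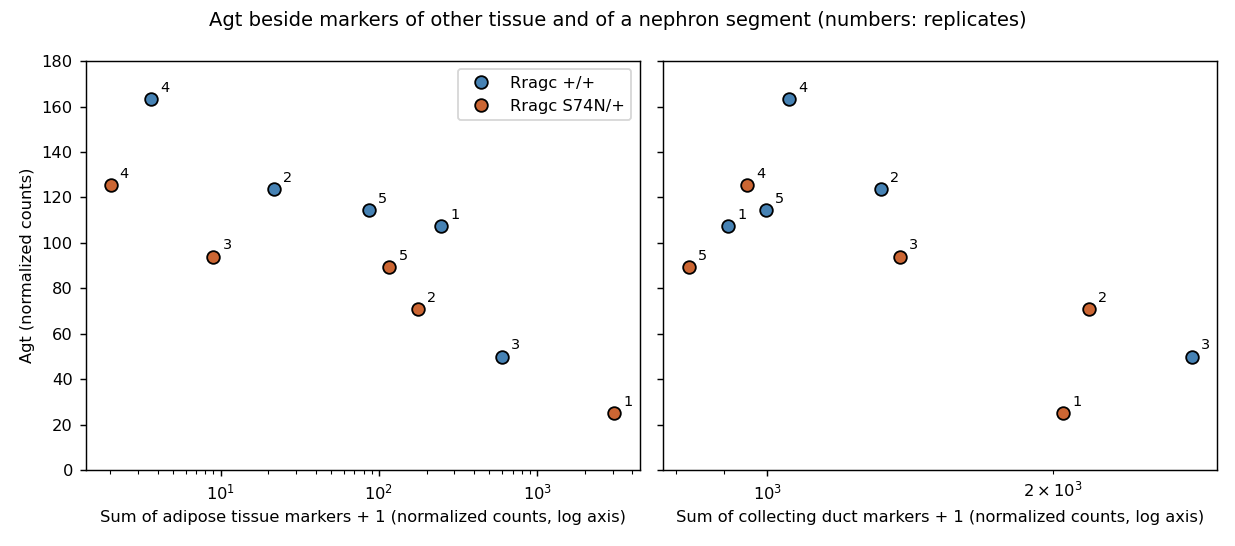
Agt (y axis, normalized counts) against the summed normalized counts plus 1 of adipose markers (left) and collecting duct markers (right), both x axes logarithmic, in 5 Rragc +/+ (blue) and 5 Rragc S74N/+ (orange) kidneys. The numbers are replicates. Agt is lowest, at 25.2 and 49.9, in the 2 kidneys with the highest adipose sums, 3077 and 600.0.

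The genes whose pattern over the 10 kidneys was most like that of Ren1 and Pappa2 were found by the root mean square difference of log2 levels, each centred on its own mean. For Ren1 they were Gm38365, Ska2 and Zc3h3, at distances of 0.34, 0.36 and 0.36, where Ren1 itself deviated from its mean by 0.64. Gm38365 shared the high replicates 4 and 5 of Rragc +/+, with 27.1 and 27.9 normalized counts beside 8.95 to 11.5 in replicates 1 to 3. For Pappa2 they were Nlrp1b, Gm47476 and Gm47356, at 0.56, 0.65 and 0.68, where Pappa2 deviated by 1.58. Nlrp1b, a sensor of the inflammasome, had means of 1.66 and 11.1 normalized counts in Rragc +/+ and Rragc S74N/+ kidneys. These are distances over 10 samples, and the likeness to Pappa2 follows in part from the genotype difference that both genes show.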

How the data were processed

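Whole kidney RNA of 10 mice aged 1.5 years, 5 Rragc S74N/+ and 5 Rragc +/+, was sequenced from the 3′ end of mRNA after oligo-dT priming. Per the labels and the study's methods, the authors checked reads with FastQC 0.11.7, aligned them to GRCm39 with TopHat2 2.0.10, Bowtie 1.0.0 and SAMtools 0.1.19, and counted reads on the sense strand with HTSeq 0.6.1. The deposited table holds signal values, namely read counts that the authors divided by a size factor of each sample, for 13299 genes. Its lowest mean over the 10 samples was 4.37, so genes with fewer reads had been left out by a rule not given in the sources used here. Replicate numbers follow the order of deposit.

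The values, with a pseudocount of 1 added, were put on a log2 scale, and limma 3.58.1 under R 4.3.3 fitted genotype alone to each gene (eBayes with a variance trend). A gene entered at 5 or more normalized counts in 5 or more samples, which kept 13236 genes and removed 63. Two-sided p-values were adjusted by Benjamini-Hochberg across every gene that entered, and the threshold was 0.05. Whole reads were recovered in 8 columns (100% of values whole within 0.01), and edgeR 4.0.16 and DESeq2 1.42.0 were run on these, 4 samples per genotype. Replicate 5 of Rragc +/+ and replicate 3 of Rragc S74N/+, whose size factors are close to 1, were kept out of the count models, although their values also came out whole. The reported limma fit and the edgeR and DESeq2 fits were tested on simulated data, and the alternative limma settings were not. Relations with marker sums used 100000 permutations of the samples.

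The text names the members, the genes of each pathway list past the threshold with the first 2 tested genes of that list that were not, the 3 genes most like Ren1 and Pappa2, the Y-linked genes by value, and marker lists by counts and ranges. A result that this rule would name is not reported here. Markers and genes named beyond this were picked after their values were seen. The members and lists were chosen with earlier results of these data known. Alternatives were other pseudocounts, no filter, equal library totals, no variance trend, each library left out, the count models and, added after seeing the data, limma on the same 8 samples, a term for the range of title numbers, and fits without chosen libraries. Promoter sequences are from RefSeq (GRCm38.p6).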

Additional observations from a re-analysis of the deposited data

Results flagged for a closer look

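Each of the 27 genes described in the report with their values was searched for a sample that stood apart from the other 4 of its group (the gap to the nearest sample over the range of the group, above 0.71). Of 54 groups 3 had one, where chance flags about 1 in 20, or 2.7 groups. Pappa2 was highest in Rragc +/+ replicate 4, with 13.1 normalized counts beside 1.04 to 2.88 in the other Rragc +/+ kidneys. Ace was highest in Rragc +/+ replicate 5, with 138 beside 94.3 to 105. Nos3 was highest in Rragc S74N/+ replicate 4, with 19.4 beside 4.0 to 5.82.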

How the results depend on the processing

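The members were chosen with this contrast known, and refits of the same data add no support to them. The log2 fold change of Pappa2 ran from 1.90 (pseudocount of 5) to 3.21. The count of members past the threshold, 1 in the reported fit, was 2 with equal library totals (Mme added) and 1 to 1 with each library left out. The log2 fold change of Ren1 ran from -0.24 to 0.67 and was positive in 9 alternatives and negative in 12, that of Enpep was negative in 2 of 21, and that of Nos1 ran from 0.66 (pseudocount of 5) to 1.68. Over all genes, 798 calls became 391 without the variance trend, 1402 with DESeq2 on 8 samples and 445 without replicates 4 and 5 of Rragc +/+. With 1 library left out they ran from 311 to 902, and the libraries that moved them most were Rragc +/+ replicates 1 (368), 2 (311) and 4 (383) and Rragc S74N/+ replicate 5 (371). The 5 calls among other pathway genes became 2 without the trend, 10 with DESeq2 and 9 without the 2 libraries highest in adipose markers. With 1 library left out they ran from 2 to 8, with 2 without Rragc +/+ replicate 1, 3 without replicate 2, 8 without Rragc S74N/+ replicate 1 and 3 without replicate 5. Ptger3 and Nostrin kept their calls in 21 of 21 alternatives, Tbxas1 in 18, Rbpj in 16 and Klk1 in 14. The cause of these moves was not tested, except that fits on fewer samples have less data.

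No paired analysis was possible because the labels carry no replicate numbers that the genotypes share. A planned term for sex was not run, since all 10 samples carried Y-linked transcripts. With 8 libraries of 4488493 reads or more, genes at the level of Pappa2 and Nos1 rest on between 0 and 40 reads per library, and the power to detect smaller differences in them was not measured.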
